A study of Mus musculus with 2 samples.

Results

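Levels and transcript forms of 9 genes for scaffold proteins of the heart sarcomere were examined in whole mouse embryonic heart. The members were chosen by name as Ttn, Nebl, Mybpc3, Myom1, Myom2, Actn2, Tcap, Ldb3 and Myoz2. Each symbol matched 1 gene of the GENCODE M21 annotation, so the set holds 9 of 55536 annotated genes, with 74 annotated transcripts. The libraries came from polyadenylated RNA, with 10 ng of RNA as input, of hearts of embryonic day 12.5 from B6NCrl mice, males and females pooled. RNA was primed with oligo-dT, fragmented libraries were made by Nextera tagmentation, and ERCC spike-in RNAs were added. The 2 libraries are biological replicates 2 and 1 of a single group, and no treatment, genotype or second age is compared. Their labels name separate tissue samples with the same donor identifier, so differences between them may be technical. The p-values compare these 2 libraries against counting error only and measure no spread between animals.

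The sarcomere is the contractile unit of striated muscle, bounded by Z-discs and carrying the M-band at its centre. Alpha-actinin crosslinks actin filaments at the Z-disc, where telethonin, myozenins and PDZ-LIM proteins also bind. Titin, a giant elastic protein, spans from the Z-disc to the M-band, myomesins crosslink the thick filaments there, and cardiac myosin-binding protein C sits on the thick filament between them. Several of these genes are spliced into forms that differ between fetal and adult or between cardiac and skeletal muscle.

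All 9 genes reached a TPM (a transcript level scaled by transcript length and library total) of at least 1 in both libraries. The same held for 12455 of 22015 nuclear protein-coding genes, or 56.6%. Actn2, which encodes the alpha-actinin of cardiac Z-discs, had the highest level at 1067 TPM in replicate 2 and 1065 in replicate 1. Mybpc3, the cardiac myosin-binding protein C gene, had 809 TPM in replicate 2 and 819 in replicate 1. Relative to their means these 2 genes had the narrowest spread of the 9, at 1066 ± 1.54 TPM for Actn2 and 814 ± 7.41 TPM for Mybpc3 (SD, n = 2).

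Ttn, which encodes titin, had 508 TPM in replicate 2 and 446 in replicate 1, a mean of 477 ± 43.5 TPM (SD, n = 2). Nebl, which encodes the Z-disc protein nebulette and a shorter LIM-domain protein, had 287 TPM in replicate 2 and 264 in replicate 1. Myom1, the gene of myomesin at the M-band, had 188 TPM in replicate 2 and 180 in replicate 1. By their means these 3 genes stood between the leading pair and the remaining Z-disc genes on the TPM scale.

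Ldb3, the gene of the PDZ-LIM protein cypher, had 186 TPM in replicate 2 and 177 in replicate 1. Myoz2, whose product calsarcin-1 binds alpha-actinin and calcineurin, had 127 TPM in replicate 2 and 121 in replicate 1. Tcap, the gene of telethonin, which caps titin at the Z-disc, had 119 TPM in replicate 2 and 112 in replicate 1. Myom2, a further myomesin gene, stood far below the rest, at 1.11 TPM in replicate 2 and 1.43 in replicate 1, on 64 and 123 expected counts.

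In the order of mean TPM, Myom1 and Ldb3 did not differ beyond their spread, since their values overlapped. Every other pair of neighbours was separated, with the lower library of the upper gene above the higher library of the lower gene. The closest of the separated pairs was Myoz2 over Tcap, at means of 124 ± 4.50 and 115 ± 4.95 TPM (SD, n = 2). Among nuclear protein-coding genes the ranks were 73 for Actn2, 110 for Mybpc3, 229 for Ttn, 446 for Nebl, 700 for Myom1, 708 for Ldb3, 1082 for Myoz2, 1171 for Tcap and 12340 for Myom2. With 2 libraries of 1 group no likeness of pattern across samples can be measured, so no gene is named for one.

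**Figure D1:**
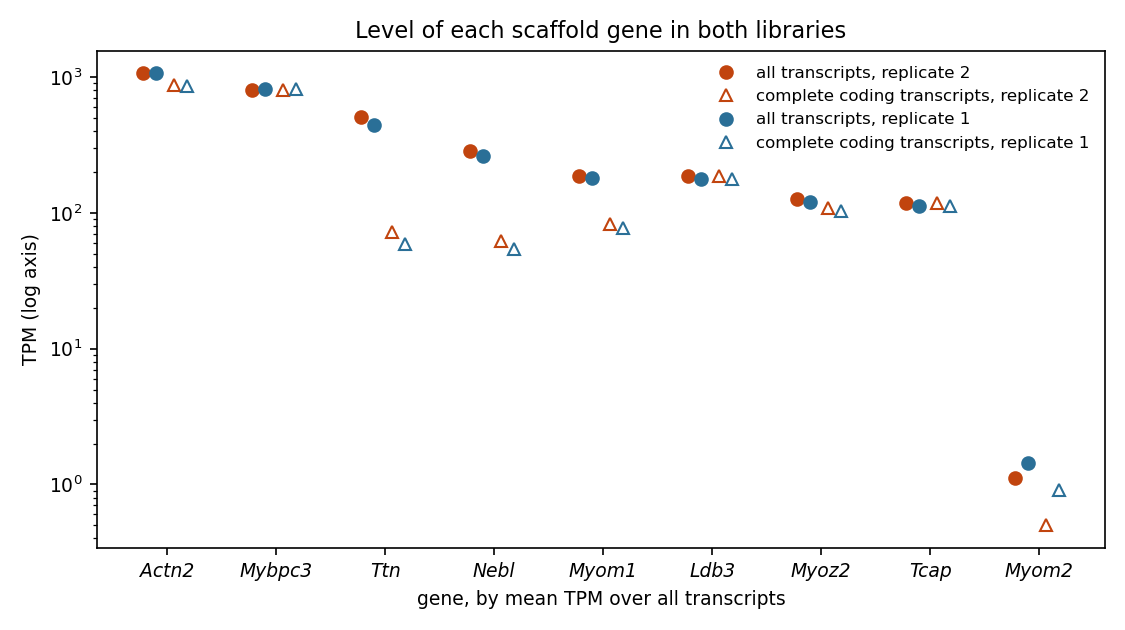
TPM (log axis) of the 9 scaffold genes in replicate 2 and replicate 1, each point a library. Filled circles sum all transcripts of a gene and open triangles sum those with a complete annotated coding sequence; the triangles fall well below the circles for Ttn (means of 65.7 against 477 TPM), Nebl (58.1 against 275 TPM) and Myom1 (80.03 against 184 TPM).

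Expected counts are reads assigned by an estimate that shares out those matching several transcripts. Their total was 32577548 for replicate 2, with 31394872 on annotated genes, and 35520161 for replicate 1, with 34248962 on genes. The 9 genes took 1.02% of gene counts in replicate 2 and 0.934% in replicate 1, and Ttn alone held 44.4% and 39.6% of the members' counts. All 10 cardiomyocyte markers were detected, with summed levels of 32722 TPM in replicate 2 and 32546 in replicate 1. Of 12 skeletal muscle markers 3 were detected, and all 12 summed to 15.1 TPM in replicate 2 and 13.4 in replicate 1. The 3 were Mybpc1 (5.61 TPM in replicate 2 and 5.72 in replicate 1), Actn3 (3.20 and 3.28) and Neb (2.06 and 1.53). They also stand among the skeletal relatives set against the members below. The muscle regulator Myog had 1.67 TPM in replicate 2 and 0.96 in replicate 1. The regulators Myod1 (0.23 and 0.39 TPM), Myf5 (0.05 and 0.04 TPM) and Pax7 (0.03 and 0.05 TPM) stayed under 1. Hepatocyte markers summed to 29.6 TPM in replicate 2 and 147 in replicate 1, and 4 of 5 were called lower in replicate 2. Levels in whole tissue cannot tell apart fewer cells of a type and less RNA per cell.

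Ttn, the titin gene, lies at chr2:76703980-76982547 (mm10, minus strand; ENSMUSG00000051747), with 25 annotated transcripts. Only 6 have a complete coding sequence, and 4 of those run to the last exons. Together these 4 reached 58.05 TPM in replicate 2 and 45.69 in replicate 1, or 11.4% and 10.2% of the gene's TPM. They took 78.2% of the gene's counts in replicate 2 (95% Clopper-Pearson interval 78.0 to 78.4%) and 76.2% in replicate 1 (75.9 to 76.4%). Such intervals cover counting error only.

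On the TPM scale a short model led. Ttn-215, a model of 12 exons and 2159 bases whose coding sequence is annotated as incomplete, had 329 TPM in replicate 2 and 299 in replicate 1. That was 64.8% and 67.1% of the gene's TPM, on 15119 of 142469 counts in replicate 2 and 15203 of 126680 in replicate 1. The effective length behind the gene's TPM was 12580 bases in replicate 2 and 11514 bases in replicate 1, against 106824 bases for the longest model. Ttn-215 holds 0 stretches of 25 bases that no other Ttn transcript has, so its reads could also be placed on another model. Ttn-213, another incomplete model of 3406 bases, had 6.35% of the TPM in replicate 2 and 5.71% in replicate 1, and also held 0 such stretches. Next below came the incomplete Ttn-218, at 4.54% and 3.93%.

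Among the forms that reach the last exons, Ttn-201 led with 45.5 TPM in replicate 2 and 36.8 in replicate 1. Its coding length of 80658 bases is the shortest of the 4. Ttn-205, with a coding length of 100401 bases, had 12.3 TPM in replicate 2 and 8.58 in replicate 1. Ttn-203, at 105639 coding bases the longest, had 0.05 and 0.02 TPM. Ttn-201 thus held 78.4% of the TPM of these forms in replicate 2 and 80.6% in replicate 1.

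Ttn-201 has 191 coding exons and Ttn-203 has 346. All 191 coding exons of Ttn-201 are also in Ttn-203, and the difference is 155 exons, of which 154 form an unbroken run from coding exon 47 to coding exon 200 of Ttn-203. That run, in the part of titin whose length is known to vary by splicing, adds 24843 bases of coding sequence. Ttn-201 holds 21 stretches of 25 bases of its own and Ttn-205 holds 11, so few reads belong to either alone. A further complete form of 45 exons, Ttn-202, ends early with a coding length of 16524 bases. It had 14.1 TPM in replicate 2 and 13.7 in replicate 1, and 6518 of its 25-base stretches are its own.

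**Figure D2:**
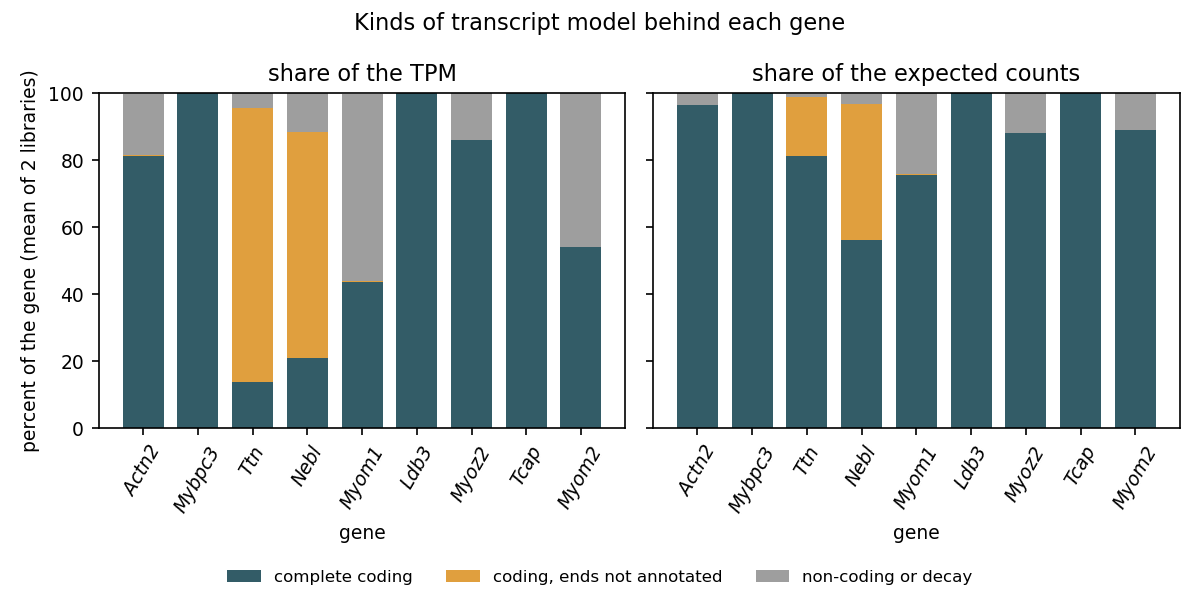
Percent of each gene's TPM (left) and expected counts (right), mean of replicates 2 and 1, held by transcript models with a complete coding sequence, by coding models whose ends are not annotated, and by non-coding or decay models. For Ttn the complete models hold 13.8% of the TPM and 81.3% of the counts, for Nebl 21.1% and 56.1%, and for Myom1 43.6% and 75.8%.

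The order of the 9 genes depended on those short models. Over transcripts with a complete coding sequence alone, an alternative chosen after the data were seen, Actn2 (868 TPM) and Mybpc3 (814 TPM) kept the first places. Ldb3 (181.5 TPM), Tcap (115 TPM), Myoz2 (107 TPM) and Myom1 (80.03 TPM) then came before Ttn at 65.7 ± 9.04 TPM and Nebl at 58.1 ± 6.01 TPM (SD, n = 2). Counts were also divided by the length of the longest complete transcript in kilobases and by the library's total expected counts in units of 1e6. Ttn then stood at 37.2 and held place 8 of 9. Ttn reads were the most numerous of the set all the same, at 142469 expected counts in replicate 2 and 126680 in replicate 1.

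Mybpc3 lies at chr2:91118144-91136516 (mm10, plus strand; ENSMUSG00000002100) and has 3 transcripts, all with a complete coding sequence. Mybpc3-203, which encodes 1278 codons, held 90.2% of the TPM in replicate 2 and 90.02% in replicate 1. Mybpc3-202 held 9.41% and 9.43%. It differs at its 5′ coding end, where its coding sequence starts within the 4th coding exon of Mybpc3-203, and it lacks a coding exon of 3 bases at chr2:91122340-91122342.

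Mybpc3-201 held 0.350% of the TPM in replicate 2 and 0.550% in replicate 1. Its coding sequence differs from that of Mybpc3-203 only at the start of coding exon 11, a 12-base exon at chr2:91122636-91122647, where it begins 3 bases later. The 2 junctions are shown because this single codon separates the most and the least abundant form. Capitals mark the bases that only Mybpc3-203 has (GENCODE M21 transcript sequences, 5′ to 3′).
Mybpc3-203: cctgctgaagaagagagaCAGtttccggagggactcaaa
Mybpc3-201: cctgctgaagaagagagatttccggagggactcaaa
The expected counts behind Mybpc3-201 were 254 in replicate 2 and 451 in replicate 1, with deposited posterior SDs of 99.0 and 144 counts.

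Myom1 lies at chr17:71002633-71126856 (mm10, plus strand; ENSMUSG00000024049), and its coding transcripts differ by an alternative exon known to be included in the embryonic heart. That exon of 294 bases, or 98 codons, is coding exon 17 of Myom1-202, at chr17:71082203-71082496. It is absent from Myom1-203, whose other coding exons are the same. The exon is shown in capitals, with 3 bases of each neighbour in lower case, above the junction that skips it, which shows 12 bases of each neighbour.
Myom1-202: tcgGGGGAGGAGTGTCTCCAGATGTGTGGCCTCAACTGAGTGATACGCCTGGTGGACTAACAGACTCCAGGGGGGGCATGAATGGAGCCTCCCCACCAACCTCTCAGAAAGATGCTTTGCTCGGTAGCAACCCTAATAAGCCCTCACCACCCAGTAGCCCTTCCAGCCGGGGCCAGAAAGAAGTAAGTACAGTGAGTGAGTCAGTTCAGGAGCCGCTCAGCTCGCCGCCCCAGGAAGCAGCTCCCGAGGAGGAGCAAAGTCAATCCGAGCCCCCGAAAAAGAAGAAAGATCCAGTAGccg
Myom1-203: aagctgctatcgccgtgccatctg

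Of the TPM of complete coding Myom1 transcripts, the form with the exon held 76.8% in replicate 2 and 70.2% in replicate 1, a mean of 73.5 ± 4.65% (SD, n = 2). By counts its share was 77.9% in replicate 2 (95% Clopper-Pearson interval 77.0 to 78.7%) and 71.5% in replicate 1 (70.6 to 72.4%). In the older M4 annotation the shares were 74.6% and 68.8%. The form with the exon led in both libraries and under each of these measures. Myom1-202 reached 63.5 TPM in replicate 2 and 54.4 in replicate 1, against 19.2 and 23.1 TPM for Myom1-203.

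Models that encode no protein held 55.7% of the Myom1 TPM in replicate 2 and 56.6% in replicate 1. By counts they held 23.6% and 24.5%. Most of their TPM lay on Myom1-208, a non-coding model of 4 exons and 941 bases at the 3′ end of the gene. It had 86.5 TPM in replicate 2 and 82.8 in replicate 1. Only 8.83% of its stretches of 25 bases are in no other Myom1 transcript, so many of its reads could also be placed on another model. Myom1-208 is absent from M4, on which the gene reached 109 TPM in replicate 2 and 103 in replicate 1. Neither Myom1-205 nor Myom1-207 is in M4 either. The M21 level was 1.73 times the M4 level, and on M4 Myom1 stood in place 8, below Tcap (120 TPM), where it held place 5 on M21. Myom1-205, a retained-intron model, held 8.28% and 8.78% of the gene's TPM in M21, and Myom1-207, the next below, 1.29% and 1.25%. The opposite-strand gene Myl12a overlaps only the 5′ end of the Myom1-209 model, at 687 TPM in replicate 2 and 651 in replicate 1. Whether strand was used in counting is not given in the sources used here.

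Myom2 lies at chr8:15057653-15133541 (mm10, plus strand; ENSMUSG00000031461) and is the only member whose level was near the detection level. Myom2-201, its complete coding transcript, had 55 expected counts in replicate 2 and 112 in replicate 1, or 0.50 and 0.91 TPM. Its share of the gene's TPM was 44.8% in replicate 2 and 63.7% in replicate 1, but 87.3% and 91.1% of the counts. The non-coding Myom2-204 held 36.0% and 17.4% of the TPM on 1 count in each library. Myom2-205, also non-coding, held 14.1% and 13.6% on 2 and 3 counts, and the retained-intron model Myom2-202 held 5.21% and 5.27% on 5 and 7. Shares of this gene's TPM therefore rest on very few reads.

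Actn2 lies at chr13:12269426-12340760 (mm10, minus strand; ENSMUSG00000052374). Actn2-201, the full form of 894 codons, had 881 TPM in replicate 2 and 856 in replicate 1. That was 82.6% and 80.4% of the gene's TPM, and 96.9% and 96.5% of its counts. Actn2-205, a non-coding model of 501 bases that M4 lacks, held 16.6% of the TPM in replicate 2 and 18.9% in replicate 1. The next below, the retained-intron model Actn2-202, held 0.82% and 0.69%. On M4 the Actn2 level was 943 TPM, still above all other members. Actn2-203, which has the same coding sequence and holds 0 stretches of 25 bases of its own, was listed at 0, with deposited posterior SDs of 591 counts in replicate 2 and 671 in replicate 1.

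Tcap, at chr11:98383811-98384953 (mm10, plus strand; ENSMUSG00000007877), has a single transcript of 2 exons that encodes 167 codons. Its 2249 expected counts in replicate 2 and 2340 in replicate 1 therefore carry no uncertainty between models. Myoz2, at chr3:123006206-123035015 (mm10, minus strand; ENSMUSG00000028116), was carried mainly by Myoz2-201, with 109 TPM in replicate 2 and 104 in replicate 1. That transcript encodes 264 codons and held 86.1% of the TPM in replicate 2 and 86.3% in replicate 1. The decay model Myoz2-203 held 6.17% and 6.41%, and Myoz2-205, the next below, 2.95% and 3.78%.

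Ldb3, at chr14:34526603-34588682 (mm10, minus strand; ENSMUSG00000021798), is known for a choice between an exon used in heart and a group of exons used in skeletal muscle. In the annotation a single coding exon of 359 bases at chr14:34576986-34577344 stands against a group of 3 coding exons of 23, 204 and 15 bases. The first 90 bases that each choice adds are shown in capitals, after the same 12 bases of the exon before.
Ldb3-201: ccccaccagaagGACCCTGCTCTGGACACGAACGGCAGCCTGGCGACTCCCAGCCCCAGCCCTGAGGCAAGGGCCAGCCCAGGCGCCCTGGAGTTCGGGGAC
Ldb3-205: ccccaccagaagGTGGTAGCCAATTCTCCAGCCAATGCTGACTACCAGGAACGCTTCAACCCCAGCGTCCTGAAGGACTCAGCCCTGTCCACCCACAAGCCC

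Transcripts with the single 359-base exon held 94.6% of the Ldb3 TPM in replicate 2 and 93.8% in replicate 1. Transcripts with the exon group held 5.43% and 6.16%. By counts the single exon's share was 93.9% in replicate 2 (95% Clopper-Pearson interval 93.5 to 94.3%) and 92.4% in replicate 1 (91.9 to 92.8%). On M4 it was 95.1% and 94.1%. The heart-type exon thus prevailed in both libraries, whichever scale or annotation was used.

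Ldb3 also makes long forms, which end in LIM domains, and short forms without them. Long forms held 52.6% of the TPM in replicate 2 and 49.8% in replicate 1, and short forms held 47.4% and 50.2%. The short forms were almost all Ldb3-203 (327 codons), at 85.5 TPM in replicate 2 and 87.9 in replicate 1. The long Ldb3-201 (723 codons) had 82.8 and 73.6 TPM. On the count scale, which is not divided by length, long forms held 78.1% of the counts in replicate 2 and 76.1% in replicate 1. Ldb3-205, the leading transcript of the exon group, held 3.23% and 3.96% of the TPM.

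Nebl, at chr2:17343909-17731464 (mm10, minus strand; ENSMUSG00000053702), starts at sites far apart that give different proteins. Nebl-202 encodes nebulette of 1014 codons, whose many nebulin repeats bind actin. Nebl-201 encodes a LIM-domain form of 270 codons and begins 270 kb upstream. Nebl-201 shares 3 of its 7 coding exons with Nebl-202, all at the 3′ end.

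Transcripts that start within 3 kb of Nebl-202 held 74.6% of the Nebl TPM in replicate 2 and 77.9% in replicate 1. Those that start near Nebl-201 held 11.3% and 10.4%. By counts the shares were 67.1% and 69.0% for the nebulette side, against 28.7% and 27.1% for the LIM side. The nebulette side led in both libraries and on both scales. Most of its TPM lay on Nebl-210, an incomplete model of 13 exons, at 188 TPM in replicate 2 and 182 in replicate 1. Nebl-210 holds 12 coding exons of Nebl-202 whole and skips exon 9 of that transcript, of 105 bases. It holds 0 stretches of 25 bases that no other Nebl transcript has, so its reads could also be placed on another model. Nebl-202 itself had 21.4 TPM in replicate 2 and 18.2 in replicate 1, below Nebl-201 at 32.0 and 27.2 TPM. The next model by mean share, the non-coding Nebl-212, held 4.60% and 5.25%. Close below it the non-coding Nebl-208 held 6.12% in replicate 2 and 3.27% in replicate 1, on 132 and 72 counts, so the order of these 2 differed between the libraries.

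**Figure D3:**
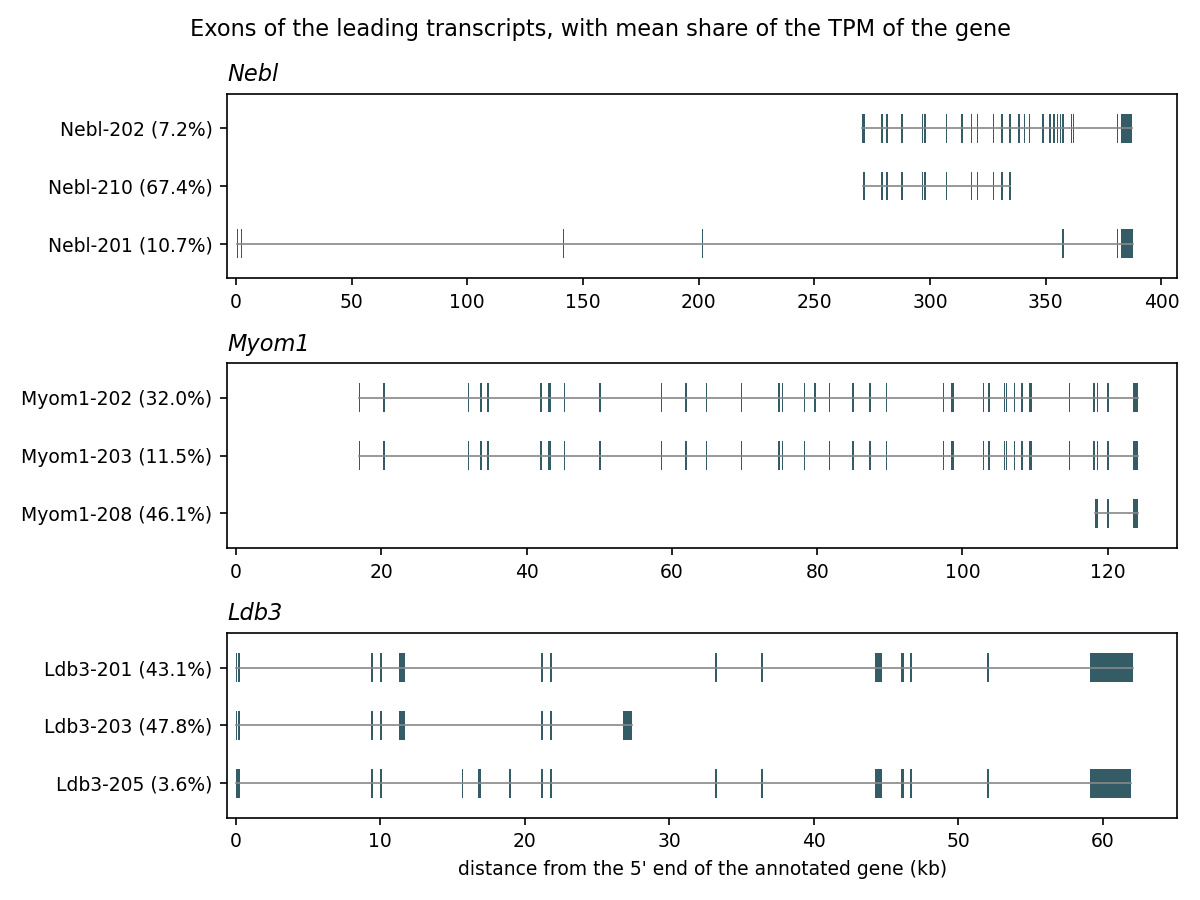
Exons (boxes) and introns (lines) of the leading transcripts of Nebl, Myom1 and Ldb3 by distance from the 5′ end of the annotated gene in kb, with each transcript's mean share of the gene's TPM over replicates 2 and 1 in brackets. Boxes narrower than the drawing can show are widened to a fixed minimum. Nebl-210 (67.4%) covers only exons in the 5′ part of Nebl-202, and Myom1-208 (46.1%) only the 3′ end of Myom1.

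Each member was set against relatives of its family within a library, as a log2 ratio of TPM with 0.5 added to each value. Actn2 exceeded Actn3, the alpha-actinin of fast skeletal fibres (3.20 TPM in replicate 2 and 3.28 in replicate 1), by 8.16 ± 0.02 (SD, n = 2). It exceeded the non-muscle genes Actn1 by 4.39 ± 0.02 and Actn4 by 2.10, with Actn4 at 247 and 248 TPM. Mybpc3 exceeded its slow skeletal relative Mybpc1 by 7.05 and its fast skeletal relative Mybpc2 by 9.27 ± 0.13. The skeletal relatives were thus 7 or more log2 units lower than the cardiac gene in these pairs.

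Nebl exceeded Neb, the giant skeletal nebulin gene (2.06 TPM in replicate 2 and 1.53 in replicate 1), by 6.92 ± 0.15, and Lasp1, a small LIM and nebulin-repeat gene, by 2.85 ± 0.04. Myom1 exceeded Myom2 by 6.71 ± 0.23 and Myom3, a myomesin of skeletal muscle, by 8.28 ± 0.08. On M4 these ratios were 5.86 and 7.47. Myom3 had 10 and 8 expected counts and a TPM below the 0.5 added, and its ratio was 9.90 with 0.1 added and 7.40 with 1 added. Myoz2 exceeded Myoz1 by 2.98 ± 0.03, with Myoz1 at 15.4 TPM in replicate 2 and 15.1 in replicate 1. Myoz3 had 3 and 0 counts, and no ratio is given.

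Ldb3 and Pdlim5, another PDZ-LIM gene of the Z-disc, had a log2 ratio of 0.07 ± 0.03 (SD, n = 2). Pdlim5 had 174 TPM in replicate 2 and 171 in replicate 1. The pair was the only one near equality, and the ratio reached 0.31 on M4. With counts not divided by length, ratios moved by over 1.5 times for Mybpc3 over Mybpc1 (7.94) and Mybpc2 (10.15), Nebl over Lasp1 (2.25) and Myom1 over Myom3 (10.48).

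**Figure D4:**
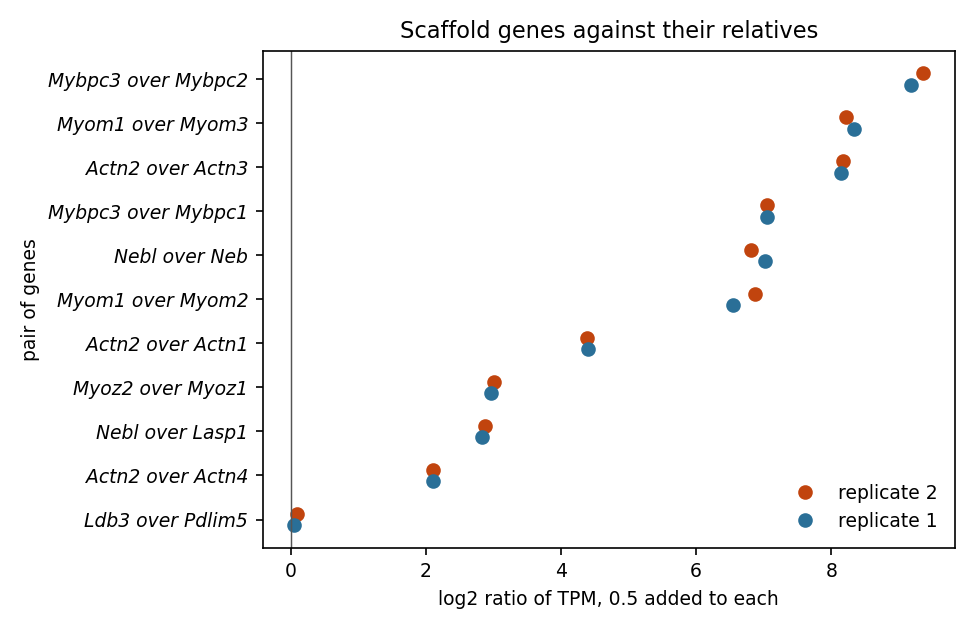
Log2 ratio of TPM (0.5 added to each) of a scaffold gene over a relative, for 11 pairs, with a point for replicate 2 and a point for replicate 1. Ratios run from 0.07 for Ldb3 over Pdlim5 to 9.27 for Mybpc3 over Mybpc2, and the 2 libraries lie close together in every pair.

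Other genes of the same structures were read from lists. Of 23 further Z-disc and I-band genes 21 were detected, at a median over the list of 148 TPM in replicate 2 and 142 in replicate 1. The highest were Csrp3, a LIM protein, at 868 ± 22.6 TPM, the chaperone gene Cryab at 812 ± 5.27 TPM and the intermediate filament gene Des at 399 ± 9.58 TPM (SD, n = 2). Xirp2 (0.1 TPM in replicate 2 and 0.06 in replicate 1) and Myot, the gene of myotilin (0.05 and 0.04 TPM), stayed under 1.

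Of 13 M-band genes and partners of the titin kinase 12 were detected, with Sqstm1 at 163 TPM, the ubiquitin ligase gene Trim55 at 155 ± 3.81 TPM and Obsl1, the gene of obscurin-like 1, at 111 ± 5.00 TPM as the highest. Myom3 alone stayed under 1. Of 8 skeletal relatives 4 were detected, led by Myoz1, Mybpc1 and Actn3, and of 7 other relatives of the members all 7, led by Pdlim7, Actn4 and Pdlim1. Mybpc2, Mybph and Myom3 were among the skeletal relatives under 1 in both libraries.

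All 10 splicing factors known to act on muscle transcripts were detected, led by Ptbp1 (110 ± 1.20 TPM), Celf1 (108 ± 2.49 TPM) and Mbnl2 (86.4 ± 2.88 TPM). Rbm20, a regulator of titin splicing, had 42.0 TPM in replicate 2 and 40.5 in replicate 1. Rbfox1 was the lowest, at 2.32 and 1.74 TPM. No gene of these 5 lists was called different between the libraries with the fold threshold. At the adjusted p alone, 5 Z-disc and I-band genes were higher and 1 lower in replicate 2, and 2 M-band genes were higher and 1 lower. Cmya5 stands in both lists and is counted in each. Rbfox2 was higher and Mybphl, a relative of Mybpc3, was lower at the adjusted p alone.

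Gene counts of the libraries were compared by an exact binomial test conditional on the summed count. It was two-sided, with Benjamini-Hochberg adjustment over 17970 genes. A call needed an adjusted p under 0.05 and an absolute log2 ratio of at least 1. By this rule 0 of the 9 genes were called, against 282 genes, or 1.57%, of all tested (0.707% higher and 0.863% lower in replicate 2). An unadjusted p under 0.05 was reached by 6 members, and the share of all genes at that level was not taken. The test covers counting error and compares these 2 libraries only. At an adjusted p alone 6 members passed, 4 higher and 2 lower in replicate 2, against 10.0% of all genes (4.28% higher and 5.73% lower). Most members were deeply counted, and among the 1263 genes whose 2 counts add up to 10000 or more that share was 29.2%. Myom2, one of the 6 that passed, lies far below that depth, at 64 and 123 counts. Tcap and Myoz2, which did not pass, also lie below it. The median log2 ratio of the members was 0.05 and that of all tested genes -0.01.

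Ttn moved most among the abundant members, with a log2 ratio of replicate 2 over replicate 1 of 0.28 (exact 95% interval 0.27 to 0.29). Its adjusted p was too small for the computer to represent. Of the 1263 deeply counted genes 1 had a higher ratio and 2 had a larger absolute ratio. Nebl had a log2 ratio of 0.12 (0.09 to 0.16, exact binomial test, adjusted p = 2.15e-10) and Ldb3 of 0.08 (adjusted p = 0.000423, exact). Mybpc3 was lower in replicate 2, at -0.05 (adjusted p = 1.6e-09, exact).

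Myom2 was lower in replicate 2, with a log2 ratio of -0.82 (exact 95% interval -1.29 to -0.38, adjusted p = 0.00417) on 64 and 123 counts. Myom1 passed narrowly, at 0.05 (exact, adjusted p = 0.0495), and did not pass with scaling by spike-ins (adjusted p = 0.134) or with no filter on low counts (adjusted p = 0.0733). Actn2, Tcap and Myoz2 did not pass, with intervals that held 0. Erythroid markers were 30643 TPM in sum in replicate 2 and 34196 TPM in replicate 1. At the adjusted p alone, 4 of 5 erythroid and 2 of 4 mesenchymal markers were lower in replicate 2. Cardiomyocyte markers were split, 4 higher and 3 lower, and so were smooth muscle markers, 2 higher and 1 lower. Among the latter Myh11 was called higher with the fold threshold, at a log2 ratio of 1.23 on 196 and 90 counts. The part of these and of the hepatocyte markers in the differences of the members was not tested.

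**Figure D5:**
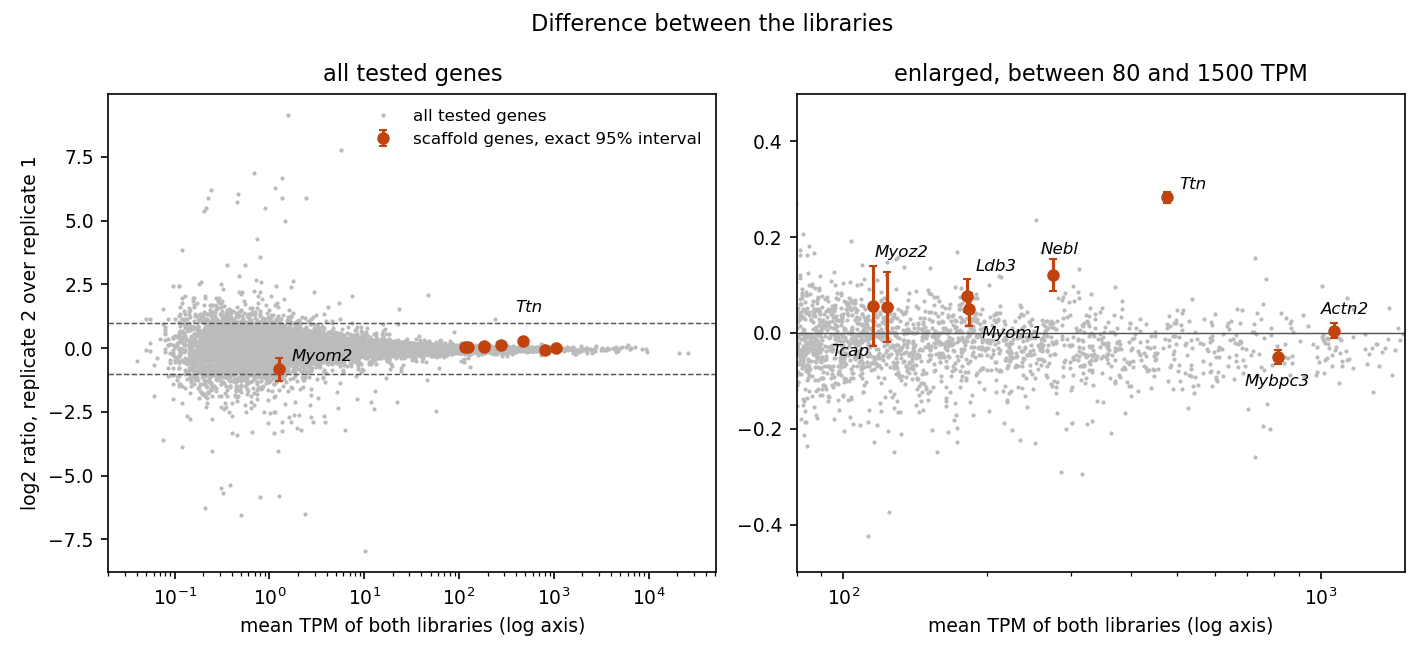
Log2 ratio of scaled counts, replicate 2 over replicate 1, against mean TPM (log axis) for 17970 tested genes (grey) and the 9 scaffold genes (orange, exact 95% intervals), over the whole range on the left and enlarged on the right. Dashed lines mark the fold threshold. Ttn lies at 0.28, above its abundant neighbours, and Myom2 at -0.82 with a wide interval.

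Transcript shares were compared between the libraries by Fisher's exact test, two-sided, over 84771 transcripts of genes with at least 2 models, with Benjamini-Hochberg adjustment. A call needed an adjusted p under 0.05 and a difference of at least 10 percentage points of the gene's counts. Of the members' transcripts 73 were tested, from 8 genes, and 0 were called, against 4.88% of all. At an adjusted p alone 21 of the 73 passed, against 17128 of the 84771, or 20.2%. Of the 21, 9 differed by more than 2 combined posterior SDs, and the share of all transcripts that did so was not taken.

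The widest difference was that of Myom1-202, which held 59.4% of the gene's counts in replicate 2 and 53.8% in replicate 1. That is 5.58 points more, with a combined posterior SD of 2.77 points (Fisher's exact test, adjusted p = 1.3e-18). The share of Myom1-203 differed by -4.58 points, replicate 2 minus replicate 1 (exact, adjusted p = 6.6e-20), within 2 combined posterior SDs of 2.77 points. That of Nebl-210 differed by -3.01 points (exact, adjusted p = 4.03e-06), and Ldb3-201 held 2.85 points more in replicate 2 (exact, adjusted p = 8.05e-06). Ttn-205 held 2.55 points more in replicate 2, at 19.5% against 17.0% of the counts in replicate 1. By TPM the same transcript led each gene in both libraries.

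Promoter windows of 250 bases before the start annotated by RefSeq were available (GRCm38.p6) for 7 of the 9 genes, 11 windows in all. They were searched for a loose MEF2-type pattern, CTA and TAG with any 4 bases between them, not only A or T. The windows were also searched for the CArG box of serum response factor. Both motifs read the same on either strand, so a match stands for both strands, and no match of one overlapped a match of the other. The loose MEF2-type pattern was found in 4 windows and in 3.20% of all 32851 windows. Matches of 3 genes are shown in capitals with 10 bases on each side.
Ttn: ttctgaaaggCTAAATTTAGcactgccaat
Mybpc3: tggaatttgtCTATATTTAGcaggtggcta
Ldb3: tcactcccagCTATTCTTAGgagcctccca
They end 156 bases before the RefSeq start for Ttn, 80 for Mybpc3 and 45 for Ldb3, at chr2:76982704-76982713, chr2:91118054-91118063 and chr14:34588653-34588662. The inner 4 bases are all A or T in the Ttn and Mybpc3 matches, but include a C in the Ldb3 match. In M21 the Ldb3 match lies inside the first exon of the leading models Ldb3-201 and Ldb3-203, so it is not upstream of their starts.

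The CArG box was found in 4 windows, against 1.47% of all windows. Overlapping windows of Ldb3 share 1 of the sites, so these are 3 sites. They lie in Ldb3, in Myom1, and in the Nebl window nearest to the start of Nebl-207.
Ldb3: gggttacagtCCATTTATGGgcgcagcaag
Myom1: gccttcctggCCATAAAAGGctggctgtgg
Nebl: gctcccatctCCTAAATTGGctggaaatgc
The sites are at chr14:34588707-34588716, chr17:71019458-71019467 and chr2:17463009-17463018. Nebl-207 (start at chr2:17462789) had 0 TPM in replicate 2 and 0.12 in replicate 1, and Nebl-206 (start at chr2:17462787) had 4.28 and 4.88. The more abundant Nebl-210 and Nebl-202 start further downstream, at chr2:17460621 and chr2:17460932. A match of letters is a description of the window and not a measured binding site.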

How the data were processed

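PolyA RNA-seq of 2 libraries was used. Per the file headers, the authors deposited expected counts, TPM, posterior mean TPM, a posterior standard deviation (treated as a score), and, for transcripts, the percent of the gene's TPM. Per the notes deposited with the files, the build was mm10 with GENCODE annotation M21 (used here) or M4 (alternative). The sources used here do not give the aligner, counter or strand use. Expected counts were rounded for tests. Libraries were scaled by TMM (edgeR 4.0.16) on rows that name genes, and 3.63% of counts in replicate 2 and 3.58% in replicate 1 lay on spike-ins or other rows and stayed out. DESeq2 1.42.0 gave alternative size factors. With 2 libraries of 1 group no model has residual spread, so exact tests on counts were run in scipy 1.17.1 on every gene whose 2 counts add up to 20 or more, 0.5 being added to scaled counts for ratios, and were tested on simulated data. Levels are mean ± SD (n = 2). Structures come from the M21 annotation. Members, lists and pairs were chosen with earlier results of these data known. All members were named, with transcripts of a mean share of at least 5% and the next below, the 3 highest genes of each list and up to 3 under 1 TPM. The tables give no molecular identifiers, and intervals cover counting error only. Of the promoter matches counted, 1 is not reported here in detail.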

Additional observations from a re-analysis of the deposited data

How the results depend on the processing

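No paired analysis was possible because the series has 1 group, so no groups share replicate numbers. All 9 members were detected on M4 and with either library left out (9 and 9), and 8 of 9 at a TPM of at least 5. The count of members called stayed 0 under the other scalings, the count filters and M4. Without a fold threshold it was 6, and the count over all genes was 1799 in place of 282. With a summed count of at least 100 it was 60, since low genes were no longer tested. Requiring a difference over 2 combined posterior SDs left 1868 transcripts called in place of 4140. Leaving out a library leaves no library comparison. Ratios to relatives kept their direction under every alternative run. Shares of Ttn, Nebl, Myom1 and Ldb3 models differ between the TPM and count scales as given above. The precision of Myom2 is limited by its counts, and 2 libraries limit every SD.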
